A study of Mus musculus with 12 samples.

Results

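miR-322-5p was measured by 5 of the 9709 miRNA probes on a mouse small RNA array, on 12 arrays of primary mouse aortic smooth muscle cells (MASMC). The probes were chosen by their identifiers, ASMM10SMR20MIRNA100000655TV1, ASMM10SMR20MIRNA100000656TV1, ASMM10SMR20MIRNA100000657TV1, ASMM10SMR20MIRNA100000658TV1 and ASMM10SMR20MIRNA100000659TV1, and are called probes 655, 656, 657, 658 and 659 below. The cells had been transfected for 48 h in serum-free medium with non-target siRNA (siNT) or siRNA against Oct4 (siOCT4), and then received 10 μg/mL POVPC or its vehicle DMSO for 24 h. Each of the 4 groups had 3 arrays, and the groups are written siNT-DMSO and siNT-POVPC for the non-target siRNA and siOCT4-DMSO and siOCT4-POVPC for the siRNA against Oct4. All 4 groups shared the transfection and the serum-free medium, and no group was left without siRNA. POVPC is an oxidized phospholipid found in atherosclerotic lesions, and OCT4, encoded by Pou5f1, is a transcription factor best known from pluripotent cells. The knockdown of Oct4 and the identity of the cells were not checked on these arrays, because probes for Pou5f1 and for the smooth muscle miRNAs miR-143 and miR-145a were not identified by name in the sources used here and were not analysed here.

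miRNAs are short RNAs that pair with messenger RNAs, mainly through a seed at their 5′ end, and lower the output of the paired message. miR-322-5p is the mouse counterpart of human miR-424-5p and has the seed of the miR-15/16 family, whose members are known for holding back cell division by targeting cyclins and other cell cycle genes. Its gene, Mir322, is on the X chromosome in a row of miRNA genes that also holds Mir503, Mir351, Mir542 and the Mir450 genes. In smooth muscle, miR-424 and miR-322 have been studied for their part in proliferation and in the switch away from the contractile state.

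The mature miR-322-5p has 22 nucleotides and is read from the minus strand at chrX:53054306-53054327 (GRCm38.p6), inside the Mir322 hairpin at chrX:53054255-53054349. In the RefSeq annotation of that build the hairpin overlapped the long non-coding RNA gene C430049B03Rik. The hairpin is shown because both of its arms were measured on the arrays, with miR-322-5p in capitals and the other arm, miR-322-3p, at hairpin positions 61 to 81.
Mir322 hairpin: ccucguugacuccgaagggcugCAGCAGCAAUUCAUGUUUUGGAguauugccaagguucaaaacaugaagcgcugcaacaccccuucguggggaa

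The mature sequences of the seed family in the RefSeq table are shown next to make clear what miR-322-5p shares with its relatives, with the seed (positions 2 to 8) in capitals. The seed AGCAGCA was found in 10 different mature sequences of that table, of which 6 are listed.
miR-322-5p: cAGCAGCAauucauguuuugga
miR-15a-5p: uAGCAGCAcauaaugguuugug
miR-15b-5p: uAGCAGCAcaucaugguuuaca
miR-16-5p: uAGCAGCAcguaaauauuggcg
miR-195a-5p: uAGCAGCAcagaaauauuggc
miR-497a-5p: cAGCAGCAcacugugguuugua
Beyond the seed the relatives differed from miR-322-5p. Compared position by position after position 8, miR-15b-5p had the same base as miR-322-5p at 9 of 14 positions, miR-15a-5p at 8 of 14, miR-497a-5p at 7 of 14, miR-16-5p at 5 of 14 and miR-195a-5p at 4 of 13. The other members with this seed in the table were miR-195b, miR-6342, miR-6353 and miR-6419.

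The 5 probes are DNA strands that pair with the 3′ part of miR-322-5p, and their sequences are shown because they differ only in how far they reach into the seed. Each starts with a guanine that does not pair with the miRNA (lower case), followed by 17 to 21 bases complementary to the miRNA (capitals), and each was part of a 60-base strand on the array.
probe 658: gTCCAAAACATGAATTGC
probe 656: gTCCAAAACATGAATTGCT
probe 655: gTCCAAAACATGAATTGCTG
probe 657: gTCCAAAACATGAATTGCTGC
probe 659: gTCCAAAACATGAATTGCTGCT
Probe 658 covered positions 6 to 22 of the miRNA and 3 of the 7 seed positions, whereas probe 659 covered positions 2 to 22 and all 7 seed positions. The 5 probes therefore read the same molecule and are not replicates of a condition. Each had 1 spot per array.

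All 5 probes were well above background on all 12 arrays and none was saturated. On the scale of the Agilent processed signal, probe 659 read between 789 and 2342 and probe 658 between 20.6 and 64.8 over the 12 arrays. The error that the scanner software assigned to a spot was between 10.0% and 11.1% of the signal in the 60 spots. One array stood apart from the rest. On siOCT4-DMSO replicate 3 the median processed signal of the miRNA probes was 28.4, against 6.34 to 10.0 on the other 11 arrays, and 9575 miRNA probes were well above background there, against 6053 to 8243. The scanner headers held 2 scan dates, and the arrays that share a date are called a slide here. That these are physical slides was inferred from the dates, since no slide label was read. Slide 1 held the 6 siNT arrays and siOCT4-DMSO replicates 1 and 2, while the 3 siOCT4-POVPC arrays shared slide 2 with the bright array, siOCT4-DMSO replicate 3.

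miR-322-5p was highest in siNT-POVPC, followed by siOCT4-POVPC, siNT-DMSO and siOCT4-DMSO. The following values are log2 of the quantile-normalized processed signal, averaged over the 5 probes of each array. In siNT-POVPC they were 8.68, 8.59 and 8.51, a mean of 8.60 ± 0.08 (SD, n = 3). In siOCT4-POVPC they were 8.39, 8.52 and 8.50, a mean of 8.47 ± 0.07 (SD, n = 3). The ranges of these 2 groups overlapped between 8.51 and 8.52, so the first 2 places in the order were not separated by more than the spread. In siNT-DMSO the values were 7.77, 8.09 and 7.96, a mean of 7.94 ± 0.16 (SD, n = 3). In siOCT4-DMSO they were 8.07, 7.75 and 7.05, a mean of 7.62 ± 0.52 (SD, n = 3). The DMSO groups overlapped, and the lowest value of the 12 was on the bright array, siOCT4-DMSO replicate 3. On this normalized scale all 6 POVPC arrays lay above all 6 DMSO arrays, and how many of all miRNA probes did so was not counted. The median of the 5 probes in place of their mean gave the same order, with group means of 9.38, 9.23, 8.74 and 8.36.

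**Figure D1:**
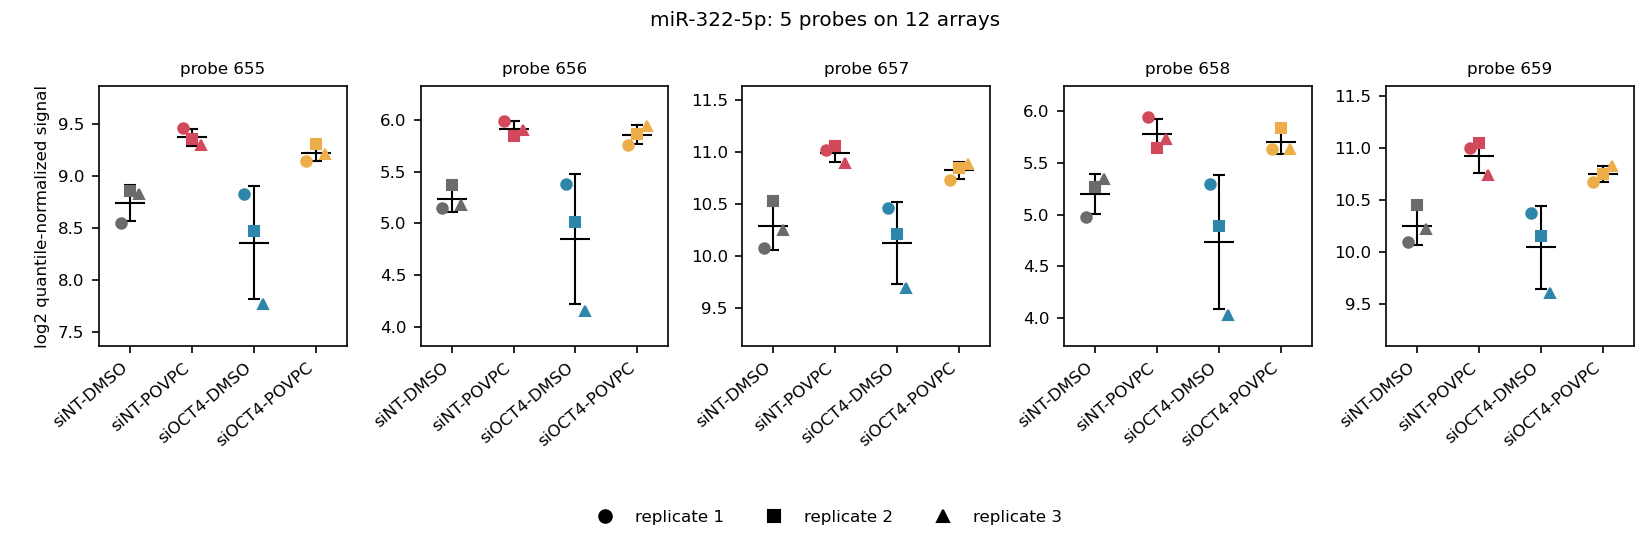
Log2 quantile-normalized signal of the 5 miR-322-5p probes (vertical axis, one panel per probe, each spanning the same number of log2 units) in the 4 groups (horizontal axis). Points are single arrays, horizontal lines are group means and bars are ± 1 SD (n = 3), and in every panel the siNT-POVPC arrays lie above the siNT-DMSO arrays and the siOCT4-DMSO group is the most spread.

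The first comparison asked what POVPC did to miR-322-5p in cells with non-target siRNA. Averaged over the 5 probes, miR-322-5p was 1.57-fold higher with POVPC (log2 difference 0.65, SE 0.11 from the spread of the 3 arrays in each group). Probe 657 read 10.08, 10.53 and 10.25 on the siNT-DMSO arrays and 11.02, 11.06 and 10.90 on the siNT-POVPC arrays. Probe 659 read 10.09, 10.45 and 10.22 with DMSO and 11.00, 11.05 and 10.74 with POVPC. Probe 655 read 8.55, 8.85 and 8.83 with DMSO and 9.47, 9.36 and 9.30 with POVPC. In each of these probes every POVPC array was above every DMSO array. Probe 656 read 5.15, 5.37 and 5.18 with DMSO and 5.99, 5.84 and 5.90 with POVPC. Probe 658 read 4.98, 5.27 and 5.34 with DMSO and 5.94, 5.65 and 5.73 with POVPC. The groups did not overlap in 5 of 5 probes, and the same was true, in the higher direction, of 7.65% of the 8620 miRNA probes tested.

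The log2 differences of the 5 probes ranged from 0.58 (95% interval 0.22 to 0.93, probe 658) to 0.71 (0.36 to 1.06, probe 657), while the median over all tested probes was 0.00. The 95% intervals of the 5 probes overlapped one another. A probe was called when limma's Benjamini-Hochberg adjusted p, computed over all 8620 tested miRNA probes, was under 0.05 and the change was at least 1.5-fold. None of the 5 was called by limma (adjusted p from 0.16 to 0.31), where 0.220% of the tested probes were called. At an unadjusted limma p under 0.05 and 1.5-fold, 4 of 5 passed and were higher, against 1.24% of the tested probes, and the methods' t-test gave 4 of 5 unadjusted and 0 of 5 adjusted. The fifth, probe 658, had an unadjusted limma p of 0.0060 and a 1.49-fold change. These 5 probes could be named only because the study had listed miR-322-5p as changed on these same arrays, so the counts are not independent evidence of a direction. All 6 arrays lay on slide 1. The groups also did not overlap before any normalization between arrays, when probe 655, for example, read 259, 491 and 352 with DMSO and 793, 718 and 725 with POVPC on the scale of the processed signal.

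In siOCT4 cells the comparison asked what POVPC did to miR-322-5p after Oct4 knockdown. miR-322-5p was 1.80-fold higher with POVPC averaged over the 5 probes (log2 difference 0.85, SE 0.30), but the spread was larger than in siNT cells. Probe 657 read 10.46, 10.21 and 9.69 on the siOCT4-DMSO arrays and 10.73, 10.85 and 10.89 on the siOCT4-POVPC arrays. Probe 659 read 10.38, 10.15 and 9.60 with DMSO and 10.68, 10.75 and 10.83 with POVPC. Probe 655 read 8.83, 8.48 and 7.77 with DMSO and 9.15, 9.31 and 9.22 with POVPC. The POVPC arrays were close together, and the DMSO arrays were spread over more than the distance between the groups. Probe 656 read 5.38, 5.01 and 4.15 with DMSO and 5.76, 5.86 and 5.94 with POVPC. Probe 658 read 5.30, 4.89 and 4.03 with DMSO and 5.63, 5.84 and 5.64 with POVPC. In every probe the third DMSO array, the bright one, was the lowest, and in 5 of 5 probes the groups did not overlap, as in 11.5% of all tested probes in the higher direction.

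The log2 differences in siOCT4 cells ranged from 0.70 (probe 657) to 1.01 (probe 656). None of the 5 was called by limma (adjusted p from 0.25 to 0.26), and in this comparison 0% of the tested probes were called. At an unadjusted limma p under 0.05 and 1.5-fold, 5 of 5 passed, against 3.25% of the tested probes in the higher direction, while the methods' t-test gave 2 of 5 unadjusted (probes 657 and 659) and 0 of 5 adjusted.

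The size of this difference depended on siOCT4-DMSO replicate 3. With that array left out, the DMSO arrays lay on slide 1 and the POVPC arrays on slide 2. Slide and POVPC cannot be told apart in that setting. Without that array the mean log2 difference was 0.56, with limma adjusted p between 0.16 and 0.20. Set against that array alone, within slide 2, it was 1.42 and 5 of 5 probes were called, with that lone array assumed to vary like the POVPC arrays. Against that 1 array 788 of the 8620 tested probes were called, or 9.14%, of which 477 were higher. Before normalization the raw order was different. Probe 655 read 401, 312 and 464 on the siOCT4-DMSO arrays and 444, 493 and 469 on the siOCT4-POVPC arrays as processed signal, so the groups overlapped and the third DMSO array was the highest of its group. Without any normalization between arrays the mean log2 difference was 0.16, and the median over all tested probes moved to -1.005, so that miR-322-5p stood 1.16 above that median. Scaled to the 75th percentile of each array, the difference was 1.22. In siNT cells the same settings gave 1.04, which was 0.85 above the median of all tested probes, and 0.92.

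**Figure D2:**
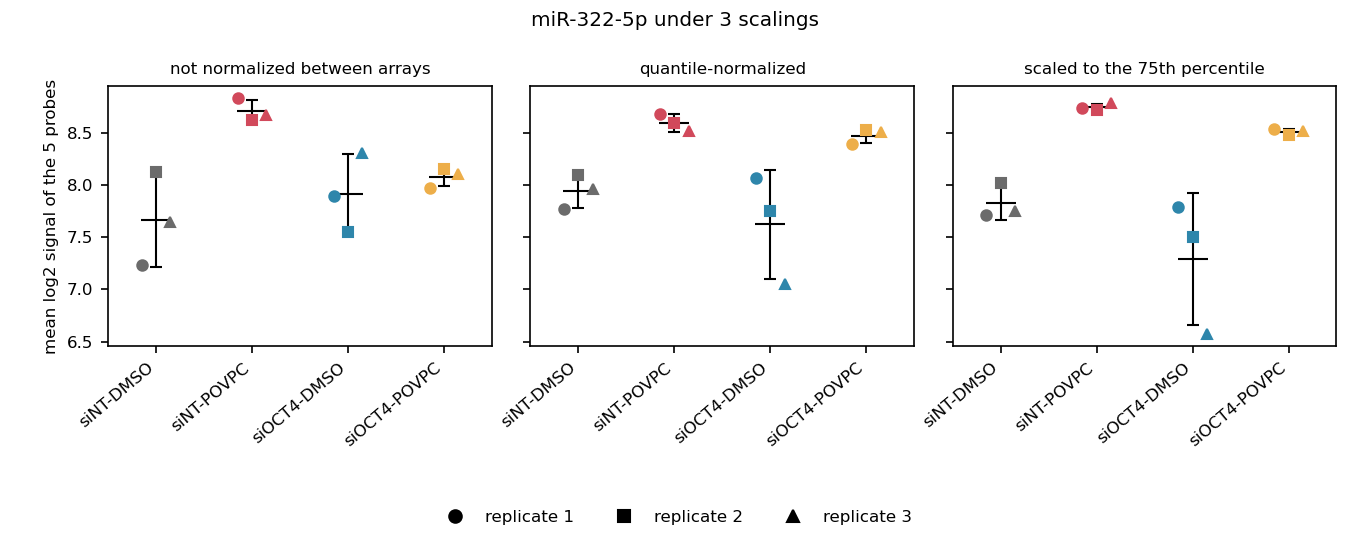
Mean log2 signal of the 5 miR-322-5p probes on each array (vertical axis) in the 4 groups, without normalization between arrays (left), quantile-normalized (middle) and scaled to the 75th percentile of each array (right). Points are arrays, horizontal lines are means and bars are ± 1 SD (n = 3), and siOCT4-DMSO replicate 3 (triangle) is the highest of its group at 8.30 on the left and the lowest at 7.05 in the middle.

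Taking both siRNAs into 1 fit of the 12 arrays, the average POVPC effect on miR-322-5p was 1.68-fold (log2 difference 0.75, SE 0.16). Here 4 of the 5 probes rose past the threshold, with limma adjusted p of 0.025 for probe 657, 0.026 for probe 659, 0.033 for probe 656 and 0.034 for probe 655. Probe 658 was 1.70-fold higher and missed it, at an adjusted p of 0.051. In this fit 1.11% of the 8620 tested probes were called, and 0.534% were called higher. After quantile normalization the mean of the 5 probes was higher on all 6 POVPC arrays than on all 6 DMSO arrays. Without normalization between arrays this did not hold, at 7.97, 8.15 and 8.10 in siOCT4-POVPC against 8.30 on siOCT4-DMSO replicate 3. The share of all tested probes with such a separation was not counted. The calls were close to the threshold. None of the 5 probes was called when siNT-DMSO replicate 1 or 3, siNT-POVPC replicate 1 or 2, or any one of the 3 siOCT4-POVPC arrays was left out, with the lowest adjusted p of the 5 then between 0.057 and 0.072. In these settings between 0.139% and 0.615% of all tested probes were called, against 1.11% with all 12 arrays. Without siNT-POVPC replicate 3, 2 of 5 were called, against 0.673% of all tested probes. Without the bright array, siOCT4-DMSO replicate 3, 4 of 5 were called, against 1.11% of all tested probes, and the mean log2 difference was 0.61. Slide and POVPC coincided in the siOCT4 cells in that setting. Without normalization between arrays 0 of 5 were called by limma, against 0.661% of all tested probes. The mean log2 difference was then 0.60, with the median over all tested probes at -0.41.

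The POVPC effect in siOCT4 cells minus that in siNT cells was 0.20 on the log2 scale over the 5 probes (SE 0.32). Single probes ranged from -0.01 (probe 657, 95% interval -0.58 to 0.57) to 0.39 (probe 658, -0.40 to 1.17). None was called by limma (adjusted p from 0.97 to 1.00), none passed at an unadjusted p under 0.05 with 1.5-fold, and 0% of all tested probes were called. These intervals included differences in both directions, so they do not show that POVPC acted alike in the siNT and siOCT4 cells. Without siOCT4-DMSO replicate 3 the mean difference was -0.091, and without normalization between arrays it was -0.88, where the median over all tested probes was -1.18 and miR-322-5p stood 0.30 above it. With that replicate left out, slide and POVPC coincided in the siOCT4 cells.

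**Figure D3:**
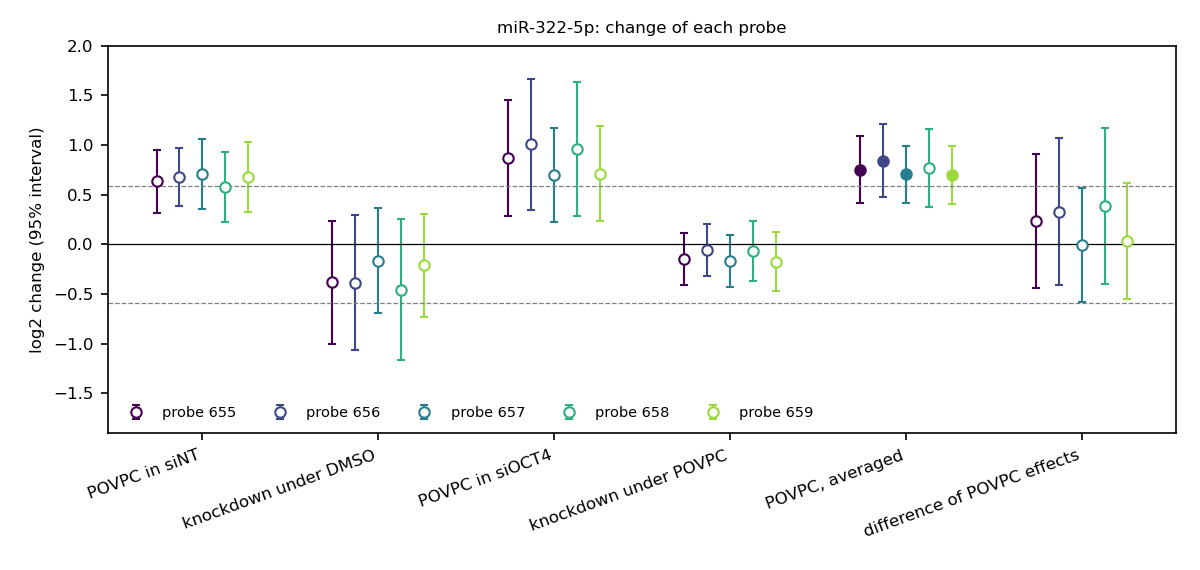
Log2 change of each miR-322-5p probe (vertical axis) in the 6 comparisons (horizontal axis), with 95% intervals from limma. Filled points are called, dashed lines mark 1.5-fold, and the only filled points are 4 probes in the POVPC effect averaged over both siRNAs.

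Knockdown of Oct4 gave no call for miR-322-5p with either treatment. Under DMSO the mean log2 difference, siOCT4 minus siNT, was -0.32 (SE 0.32), and single probes ranged from -0.46 (probe 658) to -0.16 (probe 657). The groups overlapped in 5 of 5 probes, whereas they did not overlap, in the lower direction, in 6.76% of the tested probes. None of the 5 was called by limma (adjusted p from 0.74 to 0.85) or passed at an unadjusted p by limma or by the methods' t-test, where 1.39% of all tested probes were called by limma. Without siOCT4-DMSO replicate 3, which leaves the arrays of slide 1, the mean difference was -0.033, and without normalization between arrays it was 0.25, where the median over all tested probes was 0.79 and miR-322-5p stood at -0.54 relative to it.

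Under POVPC the mean log2 difference between siOCT4 and siNT cells was -0.12 (SE 0.06), and single probes ranged from -0.17 (probe 659) to -0.05 (probe 656). Probe 657 was the only one whose groups did not overlap, at 10.73, 10.85 and 10.89 in siOCT4-POVPC against 11.02, 11.06 and 10.90 in siNT-POVPC, and 8.67% of all tested probes showed this in the lower direction. None of the 5 was called by limma (adjusted p from 0.65 to 0.91) or passed at an unadjusted p by limma or by the methods' t-test, where 2.67% of all tested probes were called by limma. These groups lay on different slides (slide 1 for siNT-POVPC, slide 2 for siOCT4-POVPC), so slide and knockdown cannot be told apart in these 6 arrays. Without normalization between arrays the mean difference was -0.63 and 5 of 5 probes were called lower, where the median over all tested probes was -0.41 and miR-322-5p stood at -0.23 relative to it. In that setting 1293 of the 8620 tested probes, or 15.0%, were called lower and 52 were called higher. In the fit of 12 arrays with slide as a block the mean difference was 0.74. The slide term of that fit is set by siOCT4-DMSO replicate 3 against replicates 1 and 2 alone, since no other group spanned both slides, so this value rests on the bright array.

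Of the other miRNAs with the seed AGCAGCA, miR-195a-5p and miR-1907 had probes with a name, 5 each, and all were tested. miR-195a-5p is encoded beside miR-497a and is known, like miR-322-5p, for targeting cell cycle genes. Its mean log2 signals were 6.90, 5.31 and 6.78 in siNT-DMSO and 6.28, 5.98 and 6.63 in siNT-POVPC. These arrays overlapped widely, and the mean POVPC difference was -0.03 (SE 0.54). In siOCT4-DMSO its signals were 5.07, 5.00 and 5.21 and in siOCT4-POVPC 5.63, 5.71 and 5.67, a difference of 0.58 (SE 0.07) with no overlap. Of all single tested probes, 11.5% had no overlap in the higher direction there. Under DMSO the knockdown difference of miR-195a-5p was -1.24 (SE 0.51), and it was -1.30 without the bright array. None of its 5 probes was called by limma in any of the 6 comparisons. miR-1907 had mean POVPC differences of -0.03 (SE 0.12) in siNT cells and 0.43 (SE 0.18) in siOCT4 cells. The latter was 0.26 without the bright array, where slide and POVPC coincide. Again 0 of 5 probes were called by limma in any comparison. At an unadjusted limma p under 0.05 and 1.5-fold, 0 probes of either miRNA passed for POVPC in siNT cells. The share of all tested probes was 1.24% in the higher direction. In siOCT4 cells 3 of miR-195a-5p and 2 of miR-1907 passed, all higher, against 3.25%. For knockdown, 5 of 5 probes of miR-195a-5p passed in the lower direction under DMSO and 2 of 5 under POVPC. The shares of all tested probes were 3.12% and 2.7% there, and 0 of 5 probes of miR-1907 passed for knockdown. miR-15a-5p, miR-15b-5p, miR-16-5p and miR-497a-5p were not analysed here.

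A further 5 miRNAs from Mir322 and the row of genes around it had 5 named probes each, all tested, namely miR-322-3p, miR-503-5p, miR-542-3p, miR-450a-5p and miR-450b-3p. Their mature sequences are shown with the seed in capitals, since they are made from Mir322 or neighbouring genes and do not have the seed of miR-322-5p.
miR-322-3p: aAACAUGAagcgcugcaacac
miR-503-5p: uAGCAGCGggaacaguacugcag
miR-542-3p: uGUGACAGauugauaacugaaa
miR-450a-5p: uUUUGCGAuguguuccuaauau
miR-450b-3p: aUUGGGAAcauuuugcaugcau
miR-322-3p is the opposite arm of the same hairpin, whereas miR-503-5p is the product of the next gene and belongs to an extended miR-15/16 group with a seed close to that of miR-322-5p. These genes lie between chrX:53048008-53048029 (miR-450b-3p) and chrX:53054306-53054327 (miR-322-5p), all on the minus strand.

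In siNT cells all 5 of these miRNAs had a higher mean with POVPC, with log2 differences of 0.54 (SE 0.06) for miR-322-3p, 0.66 (SE 0.40) for miR-503-5p, 0.53 (SE 0.09) for miR-542-3p, 0.62 (SE 0.14) for miR-450a-5p and 0.39 (SE 0.03) for miR-450b-3p. Of miR-322-3p the signals were 5.84, 5.93 and 5.78 with DMSO and 6.42, 6.31 and 6.43 with POVPC. Of miR-450a-5p they were 5.90, 6.34 and 6.23 with DMSO and 6.79, 6.72 and 6.81 with POVPC. These 2 miRNAs had no overlap between the groups, nor had miR-542-3p and miR-450b-3p. Of all single tested probes, 7.65% had no overlap in the higher direction. The groups of miR-503-5p overlapped, at 4.91, 4.87 and 5.33 with DMSO and 6.15, 5.99 and 4.97 with POVPC. None of the 25 probes was called by limma in siNT cells, where 0.220% of the tested probes were called. At an unadjusted p under 0.05 with 1.5-fold 10 of the 25 passed, all higher, against 1.24% of the tested probes.

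In siOCT4 cells the mean POVPC differences were 0.65 (SE 0.37) for miR-322-3p, 0.87 (SE 0.24) for miR-503-5p, 0.52 (SE 0.18) for miR-542-3p, 1.098 (SE 0.26) for miR-450a-5p and 0.49 (SE 0.11) for miR-450b-3p. The single probes of miR-450b-3p did not agree in direction, ranging from -0.20 to 0.92. Without siOCT4-DMSO replicate 3, where slide and POVPC coincide, these mean differences were 0.30, 0.76, 0.35, 0.83 and 0.45 in the same order. None of the 25 probes was called by limma, nor was any other tested probe (0%). At an unadjusted p under 0.05 with 1.5-fold 17 of the 25 passed, all higher, against 3.25% of the tested probes. In the fit of both siRNAs together, 5 of 5 probes of miR-450a-5p rose past the threshold, as did 3 of 5 of miR-450b-3p, 1 of 5 of miR-542-3p, 0 of 5 of miR-322-3p and 0 of 5 of miR-503-5p, against 4 of 5 of miR-322-5p. Without the bright array these counts were 5, 2, 0, 0 and 0, and 4 for miR-322-5p. Of all tested probes, 0.534% were called higher in the full fit and 0.313% without the bright array. The median change of the probes of these miRNAs in that fit lay between 0.55 and 0.86, against -0.02 over all tested probes. Single probes of miR-450b-3p ranged from -0.08 to 0.74 there. Like miR-322-5p, these miRNAs could be named only because the study had listed them as changed. The remaining products of these genes, such as miR-351-5p and miR-450b-5p, were not analysed here.

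**Figure D4:**
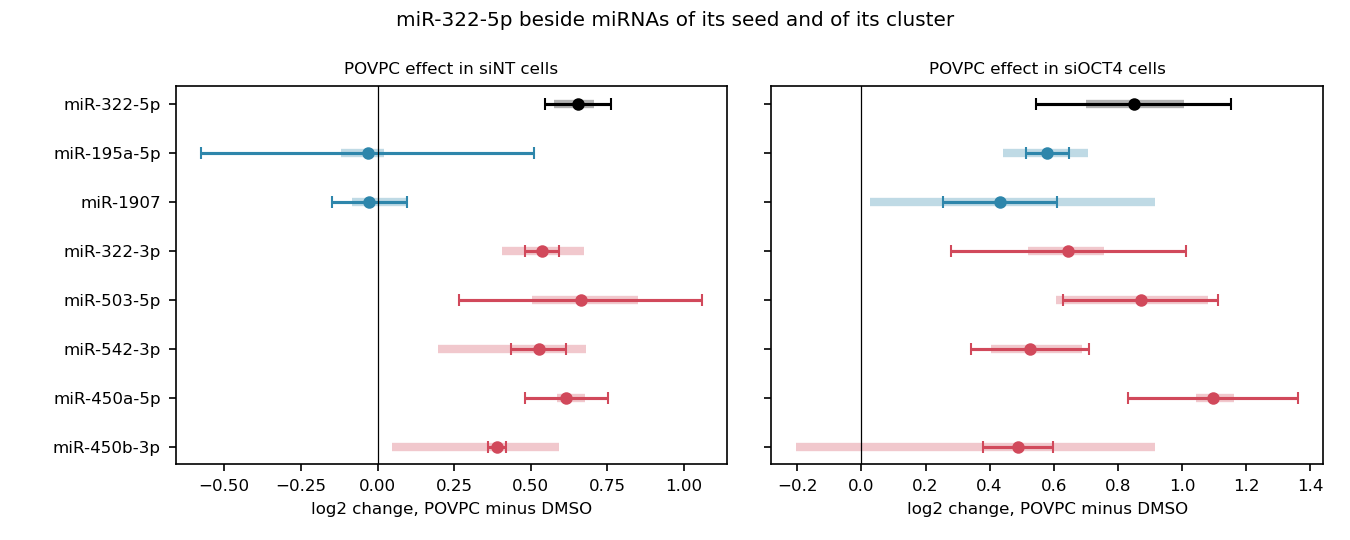
Log2 change with POVPC (horizontal axis) in siNT cells (left) and siOCT4 cells (right) for miR-322-5p (black), miRNAs of its seed (blue), and miR-322-3p and miRNAs of neighbouring genes (red). Points are the mean over 5 probes with SE from the arrays (n = 3 in each group), and pale bars span the lowest to highest probe. In siNT cells miR-195a-5p and miR-1907 lie at -0.03 while the 5 miRNAs in red lie between 0.39 and 0.66.

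The 5 probes moved together from array to array, with Pearson's r between 0.93 and 0.99 for their 10 pairs over the 12 arrays, and between 0.85 and 0.98 for deviations from the group means. Among the 109 other named miRNAs, the 5 whose mean log2 signal followed that of miR-322-5p most closely over the 12 arrays were miR-450a-5p (r = 0.97, rho = 0.92), miR-322-3p (r = 0.96, rho = 0.90), miR-199a-3p (r = 0.91, rho = 0.81), miR-450b-3p (r = 0.91, rho = 0.95) and miR-542-3p (r = 0.90, rho = 0.73). Of these, miR-322-3p is the other arm of the Mir322 hairpin, and the rest except miR-199a-3p come from the neighbouring genes. miR-199a-3p is a miRNA known from mesenchymal cells, including fibroblasts and smooth muscle.

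These correlations describe arrays that share slides, normalization and the bright array, and no p is given for them. Without the 2 arrays farthest from the median, siOCT4-DMSO replicates 3 and 2, r was 0.90 for miR-450a-5p, 0.92 for miR-322-3p, 0.74 for miR-199a-3p, 0.89 for miR-450b-3p and 0.87 for miR-542-3p. For deviations from the group means, r was 0.94, 0.94, 0.93, 0.54 and 0.86 in the same order. Other named miRNAs were as high there, such as miR-10a-5p at 0.94 and miR-5616-3p at 0.96, the latter with r = -0.16 over the 12 arrays. Without normalization between arrays r was 0.97, 0.92, 0.92, 0.66 and 0.74 in the same order. In that setting miR-10a-3p, at 0.79, lay above miR-450b-3p and miR-542-3p. Closeness on these measures was thus not particular to this row of genes. The lowest r over the 12 arrays was that of miR-1224-5p (r = -0.89, rho = -0.69), at 9.88 on siOCT4-DMSO replicate 3 against 7.89 to 8.75 on the other arrays. Its place rested on that array. Without siOCT4-DMSO replicate 3 its r was -0.74, and other miRNAs, among them miR-6927-5p at -0.92, were lower. Without normalization between arrays the r of miR-1224-5p was 0.14.

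**Figure D5:**
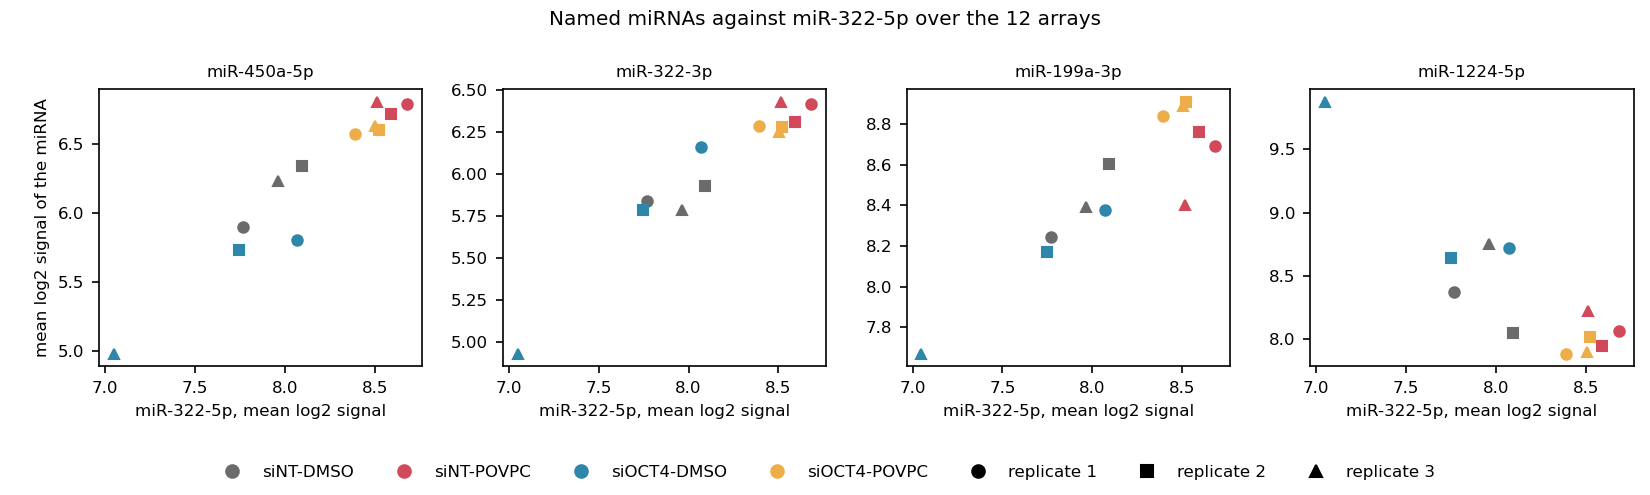
Mean log2 quantile-normalized signal of 4 named miRNAs (vertical axes) against that of miR-322-5p (horizontal axes), each point being 1 of the 12 arrays, coloured by group with the shape giving the replicate. miR-450a-5p and miR-322-3p rise with miR-322-5p (r = 0.97 and 0.96), miR-199a-3p follows at r = 0.91, and miR-1224-5p falls (r = -0.89, and -0.74 without siOCT4-DMSO replicate 3), with siOCT4-DMSO replicate 3 at the left end of every panel.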

How the data were processed

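Groups and replicate numbers came from the source name of each sample. The description of 9 of the 12 samples named non-target siRNA and DMSO and was not followed. The labels do not say whether the 3 arrays of a group came from separate cultures, so the p-values measure only the spread between these arrays. Per the study's methods, dephosphorylated RNA was 3′ end-labelled with Cy3 and hybridized to a one-colour array. The scanner files hold, as deposited by the authors, the intensity of each spot from Agilent Feature Extraction 11.0.1.1 (per the submitters' processing notes), namely the background-subtracted processed signal, not normalized between arrays. A series table deposited by the authors holds log2 values of 14192 small RNA probes that were quantile-normalized in GeneSpring, with its floor and centring not fully known, and it served as an alternative only.

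Control spots and 14 to 23 outlier spots per array were left out. The processed signals of the 12 arrays were then quantile-normalized together, raised to 1 where lower, and converted to log2. Tests covered the 8620 of 9709 miRNA probes that exceeded background clearly on 3 or more arrays. Groups were compared with limma 3.58.1 in R 4.3.3 (lmFit, eBayes, two-sided), 2 groups at a time on 6 arrays, or over 12 arrays for the averaged effect and for the difference of effects. p-values were adjusted by Benjamini-Hochberg over all tested miRNA probes. The methods' t-test is an unpaired two-sided test with equal variances, assumed from the study. Means over the 5 probes are given without a p. The fit was tested on simulated data. The number of arrays limits the precision.

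miRNA names, seeds and probe sequences of 520 probes (110 miRNAs) were taken by identifier from the study's lists of changed miRNAs, without values. Mature and hairpin sequences are from RefSeq (GRCm38.p6). The miRNAs named were those of the seed, those of Mir322 and the neighbouring genes, and the 5 most like and the 1 least like miR-322-5p in pattern. Members, lists and tests were chosen with earlier results of these data known. The arrays were not treated as paired by replicate number in the main fits. Deviations of same-numbered arrays correlated between -0.24 and 0.43, and those of differently numbered arrays between -0.53 and 0.33. These ranges overlap and do not settle whether the numbers pair the arrays. Alternatives covered scaling, background correction, floor, filter, test, blocks and leaving out arrays.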

Additional observations from a re-analysis of the deposited data

How the results depend on the processing

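The mean change of the 5 probes with POVPC was above 0 in siNT cells, in siOCT4 cells and on average under all alternatives run, and the knockdown differences and the difference of the POVPC effects were not stable in sign. In siNT cells the mean log2 change of 0.65 became 0.92 and 0.79 with 75th percentile scaling over all probes and over probes above background on all arrays, 0.45 with normexp and 1.04 without normalization between arrays. Under normexp the change in siNT cells was 0.18 for probe 658 and 0.22 for probe 656 but 0.64 for probe 657 and 0.66 for probe 659. At an unadjusted p, limma and the methods' t-test each passed 4 of 5 probes there. In siOCT4 cells the change of 0.85 became 1.42, with 5 of 5 called, with slide as a block, within slide 2 and in the fit of 12 arrays with slide as a block, where 1016, 788 and 859 of the 8620 tested probes were called. Every value with slide as a block or within slide 2 that involves a POVPC array of siOCT4 cells rests on siOCT4-DMSO replicate 3, the only DMSO array of slide 2, so these values are not separate evidence. The change was 0.16 without normalization, where probe 658 reversed to -0.029. At an unadjusted p, 5 passed by limma and 2 by the methods' t-test. The averaged change of 0.75 became 1.07 with 75th percentile scaling and 1.04 with slide as a block. Its 4 calls became 2 at a floor of 8, 0 without normalization, and between 0 and 5 when 1 array was left out. Of the 8620 tested probes, 50, 57 and between 12 and 128 were called in the same order. The knockdown difference under POVPC became -0.23 with 75th percentile scaling and -0.63 without normalization (5 called, with 1293 of 8620 tested probes called lower). It became 0.74 in the fit of 12 arrays with slide as a block (1 called, with 646 of 8620 tested probes called). In that fit the 5 probes reversed to 0.74, 0.99, 0.48, 0.99 and 0.49 in order of their number. Leaving out 1 array moved probe 658 in the knockdown difference under POVPC between -0.14 and 0.013. The knockdown difference under DMSO became 0.25 without normalization, where the 5 probes reversed to 0.12, 0.37, 0.25, 0.31 and 0.21. With slide as a block, within slide 1 and without the bright array, probes 657 and 659 reversed to 0.052 and 0.012, and leaving out 1 array gave -0.33 to 0.052 and -0.38 to 0.012 for them.

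The difference of the POVPC effects became 0.77 with slide as a block (2 called, with 370 of 8620 tested probes called). It became -0.88 without normalization, where probes 655, 656, 658 and 659 reversed to -0.79, -0.97, -0.91 and -0.86. Its mean lay between -0.091 and 0.42 when 1 array was left out. Probe 657, at -0.01 in that difference, reversed to 0.42 with slide as a block, 0.30 and 0.31 with the 75th percentile scalings, 0.091 with 95th percentile scaling, 0.0060 with normexp and 0.0035 in the deposited table. Leaving out 1 array moved this difference between -0.22 and 0.17 for probe 657, -0.19 and 0.20 for probe 659, -0.062 and 0.47 for probe 655, and -0.017 and 0.60 for probe 656. With the replicate number as a block (replicate block), the mean changes were as before and the averaged effect again had 4 calls (adjusted p from 0.034 to 0.064), and no call for the 5 probes changed in the other comparisons. Over all tested probes, the number called was 19 for POVPC in siNT cells (0 to 211 under the alternatives), 120 for knockdown under DMSO (15 to 415), 0 for POVPC in siOCT4 cells (0 to 1016), 230 for knockdown under POVPC (50 to 1345), 96 for the averaged effect (4 to 590) and 0 for the difference (0 to 370). The causes were not tested. The settings without normalization, with 95th percentile scaling and with slide as a block over 12 arrays were chosen after seeing the data. The methods' t-test applies to 2 groups and was not run for the averaged effect or the difference, and no slide held all 4 groups. With 3 arrays in each group, dim probes and the bright array limit what can be resolved.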
